A study of Mus musculus with 15 samples.

Results

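The neuronal splicing regulators are 10 RNA-binding protein genes (*Ptbp1*, *Ptbp2*, *Srrm4*, *Nova1*, *Nova2*, *Rbfox1*, *Rbfox2*, *Rbfox3*, *Celf4* and *Khdrbs2*) followed here through postnatal development of mouse Purkinje cells (PCs), the large neurons that carry the output of the cerebellar cortex. They were chosen by name, and all 10 had a row among the 38561 gene rows of the count files. The RNA came from PCs cut out of brain sections with a laser at P0, P4, P8, P14 and P21, in mice of the strain labelled C56/BL6 (C57/BL6 in the study's methods, which name males) for which no treatment is named, and 3 biological replicates at each age gave 15 samples. Individual PC somata were captured at P4 to P21 and clusters of PCs at P0, so the P0 samples differ from the others in age and in the way they were collected, and these cannot be told apart.

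Total counts on genes ranged from 3409371 to 7814951 per sample. Levels are given as CPM, the counts of a gene scaled to a common library size over the tested genes (1e6, with TMM factors), and levels of different genes are compared only as RPKM, which divides the CPM by the length of the annotated exons in kilobases. The summed CPM of 6 PC markers ranged from 4549 to 6007 at P0 and from 36886 to 46640 at P21, and all 6 rose with age. RNA of other cells was present as well. The summed level of 8 Bergmann glia and astrocyte markers averaged 4884 CPM at P0, 9250 CPM at P8 and 3809 CPM at P21. Of this sum, *Fabp7* alone averaged 2687, 4662 and 186 CPM at these ages, and *Slc1a3* averaged 1439, 2388 and 2511 CPM. The course of the sum is thus not that of every glial marker. The sum of 4 cycling granule precursor markers averaged 424 CPM at P0 and 5.70 CPM at P21. The defining precursor gene *Atoh1* was at 0 in every sample. In such captured samples, fewer cells of a type and less RNA per cell cannot be told apart.

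Alternative splicing joins the exons of a gene in different combinations, and neurons use it more widely than most cells. PTBP1 is a polypyrimidine tract binding protein that holds neuronal exons back in dividing and non-neuronal cells. Its paralog PTBP2 replaces it as neurons are born and is itself lowered as they mature. SRRM4 favours the inclusion of very short exons in neurons, NOVA1 and NOVA2 bind YCAY elements and RBFOX proteins bind UGCAUG, while CELF4 and KHDRBS2 (also called SLM1) act on transcripts of ion channels and synaptic proteins. RBFOX3 is the antigen of the NeuN antibody, which stains granule neurons of the cerebellum and is known to leave mature PCs mostly unstained. Counts per gene measure the mRNA of these regulators and not the inclusion of any exon.

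The link between *Ptbp1* and *Ptbp2* runs through an exon of 34 bases that each gene carries. PTBP1 protein promotes skipping of the *Ptbp2* exon and of the matching exon in its own transcript, and a transcript without it is read out of frame and decays. Both exons are shown in capitals, with 30 bases of each neighbouring exon in lower case, because the counts analysed here pool transcripts with and without them.
*Ptbp1* exon 9 of 13 (GRCm38, chr10:79862014-79862047, plus strand): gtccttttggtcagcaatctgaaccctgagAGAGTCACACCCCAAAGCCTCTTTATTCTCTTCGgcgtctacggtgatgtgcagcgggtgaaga
*Ptbp2* exon 10 of 14 (GRCm38, chr3:119724612-119724645, minus strand): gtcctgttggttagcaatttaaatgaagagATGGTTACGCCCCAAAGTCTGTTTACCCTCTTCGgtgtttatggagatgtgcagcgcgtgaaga
The exons were identical at 26 of 34 positions, and their length leaves a remainder of 1 base when divided by 3. In the GENCODE M21 annotation, 4 transcripts of *Ptbp1* and 3 of *Ptbp2* contained the exon, and none of these was marked for nonsense-mediated decay. The 2 transcripts of *Ptbp1* and the 2 of *Ptbp2* that joined the exons on either side without it were all marked for that decay.

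Of the 10 regulators, 3 fell and 2 rose with postnatal day (edgeR quasi-likelihood test, adjusted p below 0.05). *Ptbp1*, *Ptbp2* and *Srrm4* fell, beside 14.1% of the 14293 genes tested that fell. *Rbfox1* and *Rbfox3* rose, beside 12.1% of the genes tested that rose. With total counts as the only scaling, 70.0% rather than 53.9% of the calls over all genes were falls, and the median change of all genes from P0 to P21 moved from -0.16 to -0.52 on the log2 scale. *Nova2* and *Khdrbs2* then joined the regulators that fell, *Rbfox3* was no longer called, and the other 4 calls stood. When the 5 ages were compared without assuming a straight line, 6 regulators differed between ages, beside 19.3% of all genes. These were *Ptbp1*, *Ptbp2*, *Nova2*, *Rbfox1*, *Rbfox3* and *Celf4*. The 10 slopes had a median of -0.0408 log2 units per day, and all genes tested had a median of -0.00767.

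**Figure D1:**
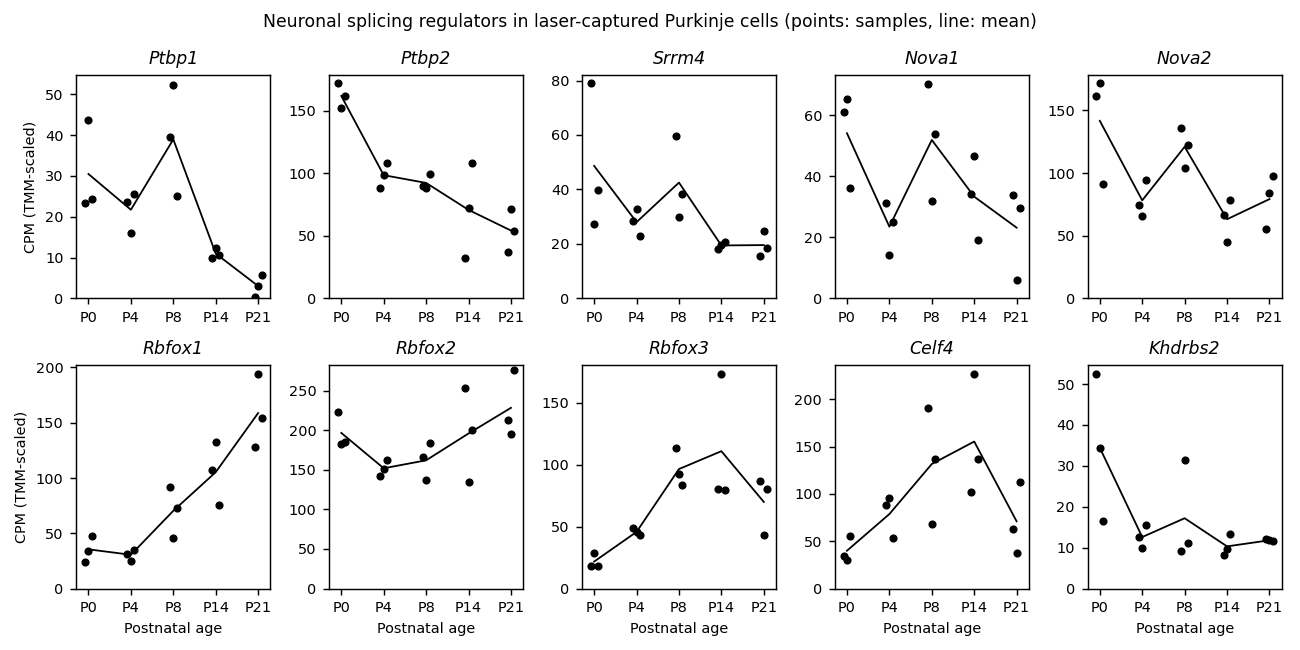
Level of each of the 10 regulators (CPM, linear axis from 0) in the 15 samples against postnatal age, with points for samples and a line through the means of 3 replicates. *Ptbp1* lies between 0.334 and 12.4 CPM in all P14 and P21 samples and between 15.9 and 43.7 CPM at P0 and P4, while *Rbfox1* lies above 75 CPM in all P14 and P21 samples and below 48 CPM at P0 and P4.

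*Ptbp1* was the regulator with the steepest fall, and most of it came after P8. Its level was 23.5, 43.7 and 24.3 CPM in the P0 samples, 23.5, 15.9 and 25.7 CPM at P4, and 39.5, 52.3 and 25.1 CPM at P8. It was 9.94, 12.4 and 10.6 CPM at P14 and 0.334, 2.97 and 5.76 CPM at P21. Every P14 and P21 sample lay below every sample of the earlier ages, and the lowest P21 value rests on 1 count in a library where 3 counts equal 1.00146 CPM. The slope was -0.156 ± 0.0404 (SE) log2 units per day (n = 15, edgeR adjusted p = 0.00728), a 9.63-fold lower level over 21 days. Against log2(day + 1), which spreads out the early ages, the fall was not called (adjusted p = 0.158), and without the P0 samples it was -0.201 log2 units per day (adjusted p = 0.00808).

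Transcripts of other cell types varied beside *Ptbp1*. The gene most like it among 9313 protein-coding genes was *Aldh1l1*, an astrocyte and Bergmann glia enzyme, with a Pearson r of 0.94 over the 15 samples. The 3 P21 samples held 0.334, 2.97 and 5.76 CPM of *Ptbp1* and 17.4, 34.5 and 74.8 CPM of *Aldh1l1*, in the same order. At P8 the order was reversed, with *Ptbp1* at 39.5, 52.3 and 25.1 CPM and *Aldh1l1* at 180, 165 and 218 CPM. It was also reversed at P14 (*Ptbp1* 9.94, 12.4 and 10.6 CPM, *Aldh1l1* 131, 82.7 and 93.9 CPM). At P0 and P4 the orders did not match. The glial marker *Slc1a3* was higher at P21 (2511 ± 535 CPM, SD, n = 3) than at P0 (1439 ± 218 CPM). *Fabp7* was lower at P21 (186 ± 64.2 CPM) than at P0 (2687 ± 593 CPM). Of the 8 glial markers, 2 fell and 2 rose with day. The summed level of the cycling granule precursor markers averaged 424, 374, 146, 22.1 and 5.70 CPM in order of age. The part of glial and of cycling cells in the *Ptbp1* course was not tested. Of the *Ptbp1* exon bases, 20.7% are shared with 3 antisense genes. *Plppr3* averaged 155, 152, 66.2, 9.43 and 3.66 CPM in order of age, so that it was lower at P8 than at P4 where *Ptbp1* was higher. *E130317F20Rik* averaged between 1.29 and 11.7 CPM, and *Gm17134*, with the most shared bases, had 0 counts in every sample. Since the strand setting of the counting is not given in the sources used here, reads from the shared bases cannot be assigned to either strand.

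*Ptbp2* fell more evenly than *Ptbp1* and was still expressed in every P21 sample. It was at 172, 152 and 161 CPM at P0, 88.3, 98.3 and 108 CPM at P4, and 89.5, 87.7 and 99.3 CPM at P8. It was at 31.8, 72.4 and 108 CPM at P14 and at 37.4, 71.6 and 53.5 CPM at P21. The P0 samples stood above all others, and the P14 samples spread from the lowest value of all 15 samples to above every P8 sample. The slope was -0.0690 ± 0.0144 log2 units per day (adjusted p = 0.00136), a 2.73-fold lower level over 21 days. Without the P0 samples, which were collected in another way, the slope was -0.0511 (adjusted p = 0.0761) and the call was lost. The comparison of the 5 ages (adjusted p = 0.0235) lost its call without replicate 1 or 3 of P0 (adjusted p = 0.0596 and 0.0504) or replicate 1 or 3 of P21 (0.0625 and 0.0593).

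Per kilobase of exon, *Ptbp2* stood above *Ptbp1* in 14 of 15 samples, and the exception was the P8 sample with the highest *Ptbp1* level. The log2 ratio of *Ptbp2* to *Ptbp1*, with 0.5 counts added to each, was 1.51 ± 0.58 (SD, n = 3) at P0, 1.25 ± 0.38 at P4 and 0.35 ± 0.62 at P8. It was 1.56 ± 0.83 at P14 and 3.70 ± 1.52 at P21. The ratio thus had its lowest mean at P8 and its highest at P21. The P14 and P21 samples exceeded the P0 and P4 samples by 1.25 log2 units, and their ranges overlapped. The difference missed the threshold (exact two-sided permutation test, n = 6 against 6, p = 0.0823, adjusted over 5 ratios p = 0.137). Leaving out replicate 1 of P14, where the ratio was 0.72, gave a difference of 1.64 log2 units and an adjusted p of 0.0433 in the same exact test. Leaving out replicate 1 of P21, where *Ptbp1* had 1 count, gave 0.73 log2 units and an adjusted p of 0.274. The third paralog, *Ptbp3*, was at 25.2 ± 4.17 CPM at P0 and 7.58 ± 1.57 CPM at P21 and fell as well (slope -0.0821 ± 0.0269, adjusted p = 0.0293).

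**Figure D2:**
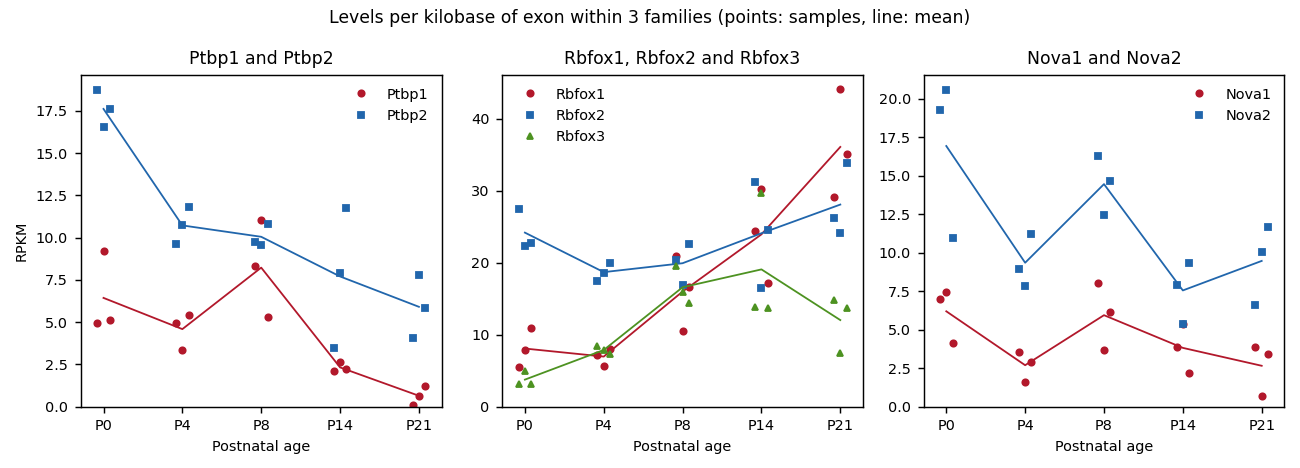
Level per kilobase of exon (RPKM, linear axis from 0) of the PTB, RBFOX and NOVA genes against postnatal age, with points for samples and lines through the means of 3 replicates. *Ptbp2* lies above *Ptbp1* in 14 of 15 samples, *Rbfox1* reaches the level of *Rbfox2* by P14, and *Nova2* lies above *Nova1* in all 15 samples.

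*Srrm4*, the regulator of neuronal microexons, fell with a wide spread among the early samples. It was at 79.0, 27.2 and 39.7 CPM at P0, 28.5, 32.7 and 22.8 CPM at P4, and 59.5, 29.8 and 38.3 CPM at P8. It was at 18.0, 19.5 and 20.7 CPM at P14 and at 15.7, 24.6 and 18.4 CPM at P21. The late samples lay close together, and 1 of them overlapped the P4 samples. The slope was -0.0617 ± 0.0200 log2 units per day (adjusted p = 0.0282), a 2.46-fold lower level over 21 days. The call was lost without replicate 1 of P0 (slope -0.0457, adjusted p = 0.117), without replicate 1 or 3 of P21 (adjusted p = 0.0717 and 0.0594) and without all P0 samples (adjusted p = 0.168), and was not made by limma-voom (adjusted p = 0.0627). *Srrm3*, the paralog that also acts on microexons, did not follow a line with day (slope 0.00669 ± 0.0272, adjusted p = 0.892) but differed between ages (adjusted p = 0.0114). It was at 29.0 ± 1.53 CPM at P0, 6.44 ± 1.18 CPM at P8 and 26.6 ± 9.46 CPM at P21.

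The NOVA proteins, first known as antigens in an autoimmune motor disorder, come from a pair of genes of which neither was called for a line with day. *Nova2* was at 161, 172 and 91.6 CPM at P0, 74.8, 65.7 and 94.1 CPM at P4, and 136, 104 and 123 CPM at P8. It was at 66.3, 44.8 and 78.3 CPM at P14 and at 55.4, 84.3 and 97.8 CPM at P21. The means were thus higher at P0 and P8 (142 and 121 CPM) than at P4, P14 and P21 (78.2, 63.1 and 79.2 CPM). The P0 samples overlapped those of P4 and P21. The slope of -0.0377 ± 0.0156 log2 units per day was not called (adjusted p = 0.0854), while the comparison of the 5 ages was (adjusted p = 0.0387), and that call was lost in 10 of the 15 fits that leave out 1 sample (adjusted p up to 0.104) and stood only without replicate 3 of P0, P4, P14 or P21 or replicate 2 of P8. Of the *Nova2* exon bases, 31.7% are shared with an antisense gene, *Gm26821*, which had 0 counts in every sample. *Nova1* averaged 54.1 ± 15.8, 23.5 ± 8.65, 51.9 ± 19.2, 33.3 ± 13.8 and 23.2 ± 14.9 CPM (SD, n = 3) in order of age, with a slope of -0.0439 ± 0.0266 (adjusted p = 0.251). *Nova2* exceeded *Nova1* in 15 of 15 samples per kilobase of all exons and in 14 of 15 per kilobase of the longest transcript. Their log2 ratio of 1.65 ± 0.38 (SD, n = 6) at P0 and P4 and 1.58 ± 1.32 (n = 6) at P14 and P21 did not differ detectably (difference -0.07, exact two-sided permutation test, p = 0.913, adjusted p = 0.913).

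*Rbfox1* showed the clearest rise of the 10. It was at 24.2, 34.3 and 47.8 CPM at P0, 31.4, 24.97 and 35.3 CPM at P4, and 91.9, 46.2 and 72.9 CPM at P8. It was at 107, 133 and 75.6 CPM at P14 and at 128, 194 and 154 CPM at P21. The P0 and P4 samples overlapped, and every P14 and P21 sample lay above them. The slope was 0.115 ± 0.0154 log2 units per day (adjusted p = 1.86e-05), a 5.32-fold higher level over 21 days. It was called in all 15 fits that leave out 1 sample (adjusted p between 1.75e-05 and 0.000162) and without the P0 samples (adjusted p = 0.000204). *Ptbp1* and *Rbfox1* were the only regulators among the 10 whose late samples (P14 and P21) did not overlap the early ones (P0 and P4). Over all genes tested, 7.14% had every late sample below and 8.24% every late sample above the early samples.

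*Rbfox2*, the family member expressed most widely outside neurons, had the highest mean level per kilobase of the 10 regulators at P0, P4, P8 and P14. It averaged 197 ± 23.2, 152 ± 10.2, 162 ± 23.6, 196 ± 59.6 and 228 ± 42.0 CPM in order of age. At P14 its range overlapped that of *Rbfox1*, whose mean per kilobase was 23.9 against 24.1 RPKM. The slope of 0.0169 ± 0.0104 log2 units per day was not called (adjusted p = 0.260), was -0.00013 with total counts as the only scaling (adjusted p = 0.994), and was called without the P0 samples (0.0375, adjusted p = 0.0407).

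*Rbfox3* was higher from P8 on than at P0, with its highest mean at P14. It was at 18.3, 28.8 and 18.2 CPM at P0, 48.8, 45.5 and 42.8 CPM at P4, and 113, 92.5 and 83.6 CPM at P8. It was at 80.3, 173 and 79.5 CPM at P14 and at 86.5, 43.2 and 80.1 CPM at P21. The 3 earliest ages did not overlap one another, and the P21 samples reached down to the P4 level. The ages differed (adjusted p = 0.00132), and this call stood in all 15 fits that leave out 1 sample. The slope of 0.0790 ± 0.0283 log2 units per day passed the threshold narrowly (adjusted p = 0.0463), a 3.16-fold higher level over 21 days. That call was lost in 9 of the 15 fits that leave out 1 sample, namely without any 1 of the P0, P4 or P14 samples (adjusted p from 0.0597 to 0.114), and without all P0 samples (slope 0.0265, adjusted p = 0.573).

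Granule neuron RNA varied in the same samples as *Rbfox3*, but the order of the samples did not match at every age. The 6 granule neuron markers summed to 422, 1052 and 484 CPM in the 3 P14 samples, in which *Rbfox3* was at 80.3, 173 and 79.5 CPM and *Celf4* at 102, 227 and 137 CPM, so that replicate 2 was the highest in all 3 measures. At P21 the markers summed to 360, 274 and 493 CPM beside 86.5, 43.2 and 80.1 CPM of *Rbfox3*. Sums at P8 were 889, 554 and 723 CPM beside 113, 92.5 and 83.6 CPM of *Rbfox3* and 191, 67.7 and 137 CPM of *Celf4*. There replicate 1 was highest in all 3 measures. Sums at P4 were 573, 330 and 578 CPM beside 48.8, 45.5 and 42.8 CPM of *Rbfox3* and 88.1, 95.2 and 52.9 CPM of *Celf4*. There replicate 3 had the highest sum and the lowest *Rbfox3* and *Celf4*. Sums at P0 were 346, 417 and 487 CPM beside 18.3, 28.8 and 18.2 CPM of *Rbfox3*. The mean marker sum was 417, 493, 722, 653 and 376 CPM in order of age. Of the 6 markers, 2 rose with day (the mature granule neuron genes *Gabra6* and *Slc17a7*) and *Pax6* fell. The part of granule neurons in the *Rbfox3* and *Celf4* levels was not tested.

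The order of the RBFOX genes changed with age. Per kilobase, *Rbfox2* led at P0 (24.2 ± 2.85 RPKM), ahead of *Rbfox1* (8.06 ± 2.69) and *Rbfox3* (3.74 ± 1.04). At P4 the values were 18.7 ± 1.25 for *Rbfox2*, 7.86 ± 0.515 for *Rbfox3* and 6.94 ± 1.18 for *Rbfox1*. At P8 the ranges of the 3 genes overlapped, at 19.9 ± 2.90 (*Rbfox2*), 16.6 ± 2.62 (*Rbfox3*) and 16.0 ± 5.22 (*Rbfox1*), and *Rbfox2* exceeded *Rbfox3* in every P8 sample. At P21 *Rbfox1* had the highest mean, 36.1 ± 7.57 RPKM, *Rbfox2* followed at 28.1 ± 5.16 with overlapping ranges, and *Rbfox3* stood apart at 12.02 ± 4.01. *Rbfox1* exceeded *Rbfox2* in 0 of 3 samples at P0 and at P4, in 1 of 3 at P8 and at P14, and in 3 of 3 at P21.

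The ratio of *Rbfox1* to *Rbfox2* was the one ratio of the 5 whose difference between early and late ages passed the threshold. Its log2 value was -2.31, -1.52 and -1.06 at P0, -1.29, -1.70 and -1.32 at P4, and 0.04, -0.68 and -0.45 at P8. It was -0.35, 0.87 and -0.52 at P14 and 0.15, 0.87 and 0.05 at P21. No late sample overlapped an early one, and the difference of 1.71 log2 units (3.28-fold) had the smallest p that this test allows (exact two-sided permutation test, n = 6 against 6, p = 0.00216, adjusted p = 0.0108). With P4 alone as the early age the difference was 1.62 log2 units (exact permutation test, adjusted p = 0.119), in a test of 3 against 6 whose smallest unadjusted p is 0.0238. The ratio of *Rbfox3* to *Rbfox2* differed by 1.15 log2 units (exact permutation test, p = 0.0455, adjusted p = 0.114) and that of *Rbfox1* to *Rbfox3* by 0.56 (exact permutation test, p = 0.286, adjusted p = 0.357), both with overlapping ranges. The order of *Rbfox1* and *Rbfox3* depended on the length used, since *Rbfox1* exceeded *Rbfox3* in 12 of 15 samples per kilobase of all exons and in 7 of 15 per kilobase of the longest transcript.

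**Figure D3:**
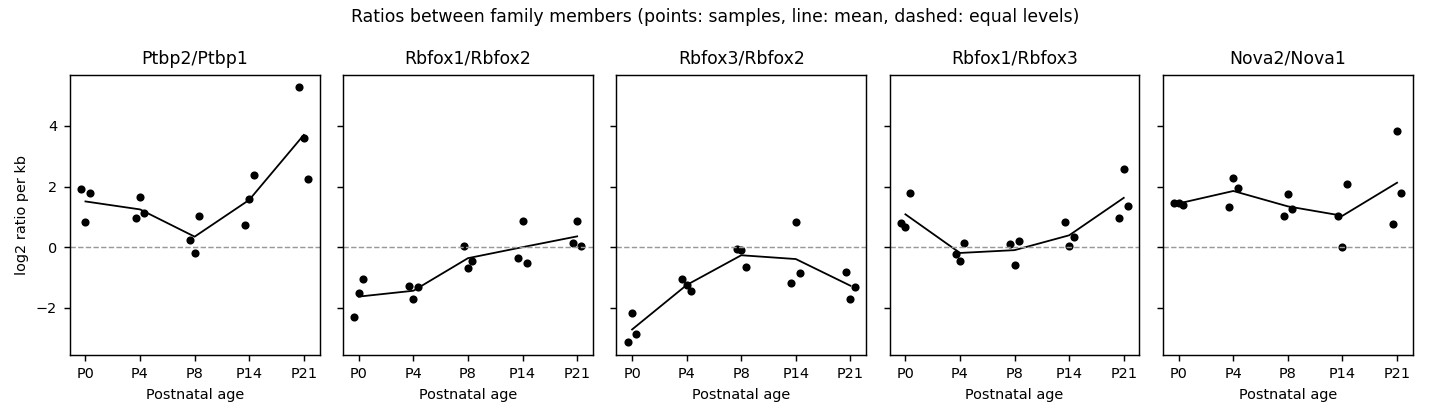
Log2 ratio per kilobase of exon between members of a family (0.5 counts added, dashed line at equal levels) against postnatal age, with points for samples and a line through the means of 3 replicates. The *Rbfox1* to *Rbfox2* ratio goes from a mean of -1.63 at P0 to 0.36 at P21 without overlap of early and late samples, whereas the other 4 ratios overlap.

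*Celf4*, which binds many synaptic mRNAs of excitatory neurons, had its highest mean at P14. It averaged 40.0 ± 13.3, 78.7 ± 22.6, 132 ± 61.6, 155 ± 64.3 and 71.0 ± 38.1 CPM in order of age. The ages differed (adjusted p = 0.0281), a call that was lost in 6 of the 15 fits that leave out 1 sample, with an adjusted p of up to 0.0818. These were the fits without replicate 1 or 2 of P0, replicate 3 of P8, replicate 2 or 3 of P14, or replicate 1 of P21. At the same time, no line with day was called (slope 0.0442 ± 0.0315, adjusted p = 0.338, and -0.00866 without the P0 samples, adjusted p = 0.898). *Khdrbs2*, a regulator of splicing in synaptic genes, was the least abundant of the 10 per kilobase at P0, P4, P8 and P14. It was at 52.5, 34.3 and 16.4 CPM at P0, 12.5, 9.83 and 15.4 CPM at P4, and 9.07, 31.5 and 11.03 CPM at P8. It was at 8.10, 9.58 and 13.2 CPM at P14 and at 12.02, 11.9 and 11.5 CPM at P21, and its slope of -0.0649 ± 0.0253 log2 units per day missed the threshold (adjusted p = 0.0676).

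No regulator passed the threshold at any of the 4 steps between neighbouring ages, either with edgeR or with limma-voom. Over all genes, edgeR called 1.97% from P0 to P4, 1.13% from P4 to P8, 2.67% from P8 to P14 and 0.329% from P14 to P21. At an unadjusted p below 0.05, edgeR counted 5, 2, 3 and 2 of the 10 regulators at the 4 steps, beside 14.9%, 11.8%, 13.4% and 7.02% of all genes. Under the same rule limma-voom counted 5, 4, 3 and 1, beside 17.9%, 13.9%, 14% and 6% of all genes. The lowest of these p-values belonged to *Rbfox1* from P4 to P8, with a difference of 1.203 ± 0.33 log2 units (unadjusted p = 0.00235, adjusted p = 0.111 in edgeR, n = 3 against 3). *Ptbp1* differed by -1.82 ± 0.65 log2 units from P8 to P14 (adjusted p = 0.185) and by -1.80 ± 0.67 from P14 to P21 (adjusted p = 0.528).

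Across the 10 genes, the order by RPKM shifted from *Rbfox2*, *Ptbp2* and *Nova2* at P0 (24.2, 17.6 and 16.9 RPKM) to *Rbfox1*, *Rbfox2* and *Rbfox3* at P21 (36.1, 28.1 and 12.02 RPKM). At P0 the ranges of the samples separated *Rbfox2* from *Ptbp2* and *Nova2* from *Rbfox1*, and each remaining neighbour in the order overlapped the next. At P21 *Ptbp1* was the lowest of the 10 at 0.637 ± 0.573 RPKM, and its range overlapped that of *Khdrbs2* (1.15 ± 0.0242 RPKM) next to it. Over the 15 samples, the closest courses among the 10 on the log2 scale were those of *Rbfox3* and *Celf4* (Pearson r = 0.80), and the most opposed were those of *Celf4* and *Khdrbs2* (r = -0.70) and of *Ptbp2* and *Rbfox1* (r = -0.69). After the mean of each age was taken out, *Rbfox3* and *Celf4* had an r of 0.52. These are descriptions over 15 samples that share their age, library and scaling.

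The promoters of *Ptbp1*, *Ptbp2*, *Rbfox1* and *Rbfox3* are shown with CG dinucleotides in capitals. The number of these played no part in the choice of genes. It was lower for *Rbfox1* and *Rbfox3* than for the other regulators described, whether those fell or were not called. Each window runs from 250 bases before to 50 bases after a transcription start of RefSeq on GRCm38.p6, 5′ to 3′ on the strand of the gene, and 8 of the 10 regulators are described by a window. Windows of *Rbfox2* and *Celf4* are not reported here.
*Ptbp1* (chr10:79854182-79854481, plus strand): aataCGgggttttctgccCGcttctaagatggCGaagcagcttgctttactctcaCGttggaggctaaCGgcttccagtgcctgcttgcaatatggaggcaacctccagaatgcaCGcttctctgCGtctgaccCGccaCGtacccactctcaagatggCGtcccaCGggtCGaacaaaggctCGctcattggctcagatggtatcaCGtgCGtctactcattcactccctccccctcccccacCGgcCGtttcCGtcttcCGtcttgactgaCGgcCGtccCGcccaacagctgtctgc
*Ptbp2* (chr3:119783339-119783638, minus strand): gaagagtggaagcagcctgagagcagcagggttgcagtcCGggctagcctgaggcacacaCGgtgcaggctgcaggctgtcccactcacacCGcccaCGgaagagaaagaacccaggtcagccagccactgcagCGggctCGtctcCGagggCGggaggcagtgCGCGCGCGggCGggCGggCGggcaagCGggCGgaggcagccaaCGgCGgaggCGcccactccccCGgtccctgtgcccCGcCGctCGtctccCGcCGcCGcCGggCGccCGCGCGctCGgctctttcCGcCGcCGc
*Rbfox1*, upstream start (chr16:5884543-5884842, plus strand): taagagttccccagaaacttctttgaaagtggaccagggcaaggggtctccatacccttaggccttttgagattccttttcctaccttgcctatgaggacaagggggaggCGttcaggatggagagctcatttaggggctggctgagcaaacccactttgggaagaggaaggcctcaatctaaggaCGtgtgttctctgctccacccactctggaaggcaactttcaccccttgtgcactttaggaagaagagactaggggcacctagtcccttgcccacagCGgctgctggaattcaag
*Rbfox1*, downstream start (chr16:7069585-7069884, plus strand): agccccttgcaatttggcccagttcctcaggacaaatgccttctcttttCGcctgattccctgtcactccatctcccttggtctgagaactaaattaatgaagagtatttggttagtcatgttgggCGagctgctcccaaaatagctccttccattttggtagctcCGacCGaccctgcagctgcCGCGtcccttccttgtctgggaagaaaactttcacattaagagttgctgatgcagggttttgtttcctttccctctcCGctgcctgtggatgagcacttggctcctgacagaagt
*Rbfox3* (chr11:118760992-118761291, minus strand): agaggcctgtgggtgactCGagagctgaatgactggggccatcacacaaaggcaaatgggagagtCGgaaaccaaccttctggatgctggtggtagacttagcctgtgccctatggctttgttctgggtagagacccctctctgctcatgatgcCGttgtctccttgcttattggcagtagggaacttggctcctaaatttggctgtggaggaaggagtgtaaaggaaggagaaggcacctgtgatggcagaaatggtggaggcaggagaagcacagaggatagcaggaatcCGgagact
The windows of *Rbfox1* held 3 and 7 CG and that of *Rbfox3* held 4, beside a median of 7 over 32851 promoters. *Ptbp1* held 22, *Ptbp2* 36 and *Srrm4* 25, and the regulators whose slope was not called held 14 (*Nova1*), 17 (*Nova2*) and 26 (*Khdrbs2*). Of all promoters, 23.1% had at least as many CG as *Ptbp1*, 6.23% as many as *Ptbp2* and 68.6% as many as *Rbfox3*. The *Rbfox3* window lies far inside the gene (chr11:118489762-118911597, minus strand), as does the downstream window of *Rbfox1*, so these counts describe internal starts. Genes with several starts are described by these windows only, and the letters say nothing about which start the captured cells used.

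Among 26 paralogs and other neuronal splicing regulators, 23 passed the filter on low counts, of which 8 fell and 3 rose with day (beside 14.1% and 12.1% of all genes), with a median slope of -0.0340 log2 units per day. *Mbnl3*, *Esrp1* and *Esrp2* did not pass it, and the epithelial regulator *Esrp1* had 0 counts in all 15 samples. The steepest falls were those of *Celf5*, from 90.9 ± 11.9 CPM at P0 to 5.36 ± 4.21 CPM at P21 (adjusted p = 2.05e-05), and of the neuronal Hu protein gene *Elavl2*, from 54.7 ± 16.6 to 2.72 ± 0.851 CPM (adjusted p = 8.62e-05). *Khdrbs3*, a paralog of *Khdrbs2*, fell from 19.998 ± 9.92 to 1.88 ± 1.92 CPM (adjusted p = 0.00588), and *Celf3* from 16.3 ± 7.30 to 4.65 ± 2.51 CPM (adjusted p = 0.0135). *Ptbp3*, *Elavl3*, *Elavl4* and *Qk* made up the 8. The last 3 of these were named after their values were seen. The muscleblind genes *Mbnl1* and *Mbnl2*, whose proteins drive a switch to mature splicing in muscle and brain, rose. *Mbnl2* was at 70.8 ± 36.0 CPM at P0 and 516 ± 110 CPM at P21 (adjusted p = 7.25e-06), *Mbnl1* at 35.2 ± 6.18 and 130 ± 23.5 CPM (adjusted p = 0.000152), and *Celf1* at 134 ± 31.2 and 211 ± 29.0 CPM (adjusted p = 0.0250). All late samples of *Mbnl1* and *Mbnl2* stood above all early ones, as for *Rbfox1*. The CELF family thus held genes that fell (*Celf3*, *Celf5*) and 1 that rose (*Celf1*), while *Celf2*, *Celf4* and *Celf6* were not called.

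**Figure D4:**
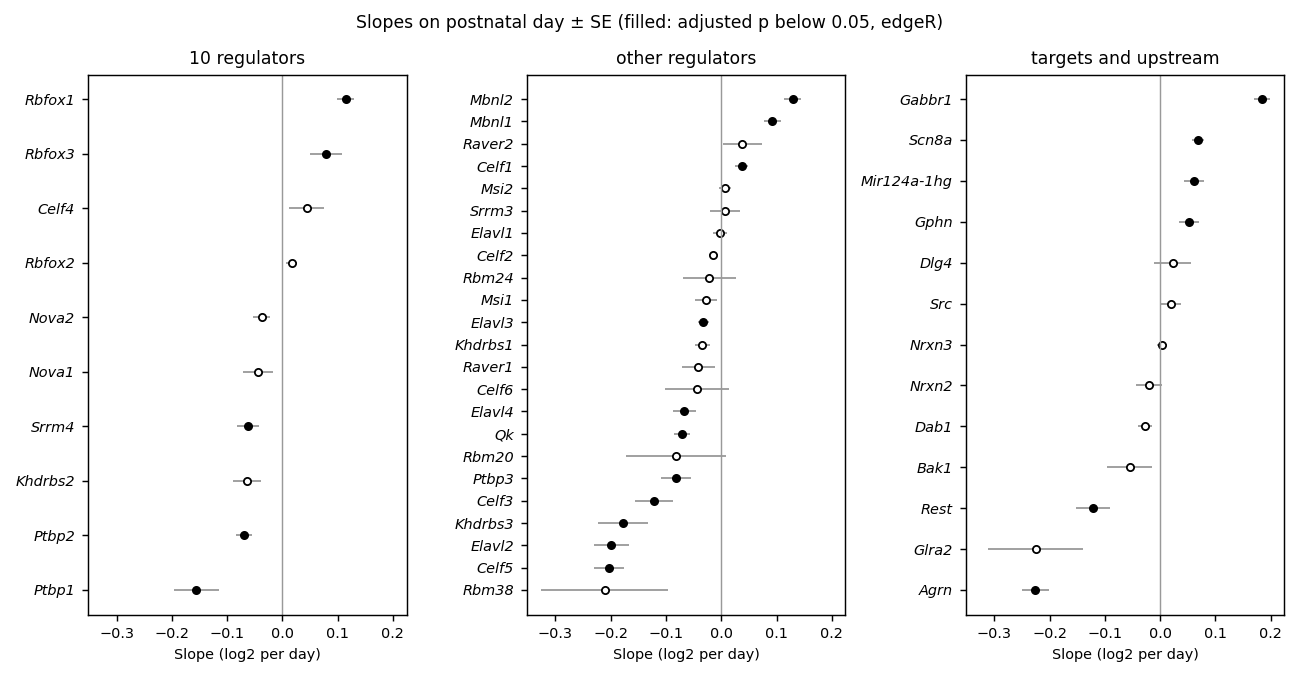
Slope of each gene on postnatal day (log2 units per day, all 15 samples) with its standard error as a bar, for the 10 regulators, 23 other regulators and 13 targets and upstream genes, filled where the edgeR adjusted p is below 0.05. Of the 10, *Ptbp1*, *Ptbp2* and *Srrm4* are filled below 0 and *Rbfox1* and *Rbfox3* above 0.

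All 15 known targets and upstream regulators with a row in the files were tested, and 3 fell and 5 rose with day (again beside 14.1% and 12.1% of all genes), with a median slope of 0.00289 log2 units per day. *Rest*, the repressor that keeps *Srrm4* and other neuronal genes silent outside neurons and is itself spliced by SRRM4, fell from 34.5 ± 14.3 CPM at P0 to 7.72 ± 4.36 CPM at P21 (adjusted p = 0.00601). *Mir124a-1hg*, a host transcript of miR-124, the neuronal microRNA known to repress *Ptbp1*, rose. Its level was 17.7, 42.1 and 42.4 CPM at P0 and 119, 111 and 51.6 CPM at P21, with overlap of early and late samples (slope 0.0611 ± 0.0175, adjusted p = 0.0140). *Dlg4*, which encodes PSD-95 and is held back by PTB proteins, was at 9.40 ± 9.61 CPM at P0 and 15.9 ± 9.70 CPM at P21 and was not called (adjusted p = 0.671), and neither was *Src*, whose neuronal exon PTBP1 represses (adjusted p = 0.539).

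Among the other listed targets, *Gabbr1*, a subunit of the GABA-B receptor, went from 122 ± 37.2 CPM at P0 to 1521 ± 185 CPM at P21 (adjusted p = 5.68e-08), and *Agrn*, the gene of agrin, from 116 ± 45.7 to 5.33 ± 2.23 CPM (adjusted p = 2.12e-06). *Agrn* is also expressed by vascular and glial cells, and the summed level of 3 vascular markers averaged 75.8 CPM at P0 (from 33.5 to 121 CPM) and 23.7 CPM at P21. Of these 3, *Pecam1* fell with day, while *Cldn5* and *Flt1* were not called, and *Flt1* averaged 9.90 CPM at P0 and 16.0 CPM at P21. The part of vascular and glial cells in the fall of *Agrn* was not tested. The gephyrin gene *Gphn* (48.8 ± 9.16 to 94.4 ± 2.80 CPM, adjusted p = 0.0372) and the sodium channel gene *Scn8a* (259 ± 111 to 717 ± 106 CPM, adjusted p = 0.000123) rose. *Nrxn3*, a target of KHDRBS proteins, was at 413 ± 105 CPM at P0 and 430 ± 71.6 CPM at P21 (adjusted p = 0.856) and was not called.

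**Figure D5:**
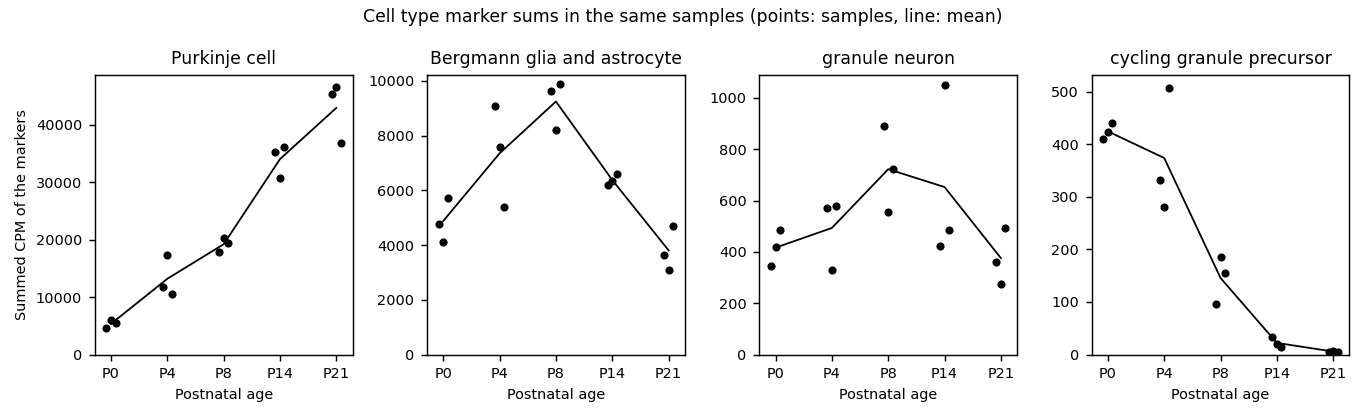
Summed CPM (linear axes from 0, scaled apart) of the markers of PCs, Bergmann glia and astrocytes, granule neurons and cycling granule precursors in the 15 samples against postnatal age, with points for samples and a line through the means of 3 replicates. The PC marker sum has a higher mean at each later age, and replicate 2 of P14 has the highest granule neuron sum (1052 CPM). The glial sum is highest at P8 (mean 9250 CPM), where *Fabp7* alone averages 4662 CPM, while *Slc1a3* is highest at P14 (3522 CPM).

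The genes whose course over the 15 samples was most like that of a regulator differed between regulators. Beside *Aldh1l1*, those most like *Ptbp1* were *Tpm3-rs7* (r = 0.93) and *Ddah2* (r = 0.93), the latter at a mean of 260 CPM at P0 and 18.0 CPM at P21. *Ptbp2* was most like *Sorbs2* (r = 0.90), *Plcxd3* (r = 0.90) and *Cbx5* (r = 0.89), a heterochromatin protein gene. *Srrm4* was most like *Tanc2* (r = 0.89), *Zfp275* (r = 0.83) and *Oprl1* (r = 0.82). *Rbfox1* was most like *Cyp27a1* (r = 0.95), *Cuta* (r = 0.95) and *Arhgap5* (r = 0.94), the latter at a mean of 102 CPM at P0 and 732 CPM at P21. Each r is the highest of 9313 and carries no test.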

How the data were processed

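The captured RNA was amplified with the SMARTer Ultra Low kit and sequenced as paired ends. Reads were trimmed, mapped with GSNAP to GRCm38/mm10 and, where they mapped uniquely, assigned to genes with HTSeq 0.5.3p9 in intersection-strict mode by the authors, and the deposited values are these raw counts. The annotation release and strand setting are not given in the sources used here. HTSeq tallies outside genes (reads without a feature were 16.7% to 29.8% of all) were left out. A level of 3 counts equals 0.388 to 1.00146 CPM on the TMM scale and covers counting error only.

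Groups came from the sample labels. Day entered as a number in an edgeR 4.0.16 quasi-likelihood test (R 4.3.3) with TMM scaling, filterByExpr by age (14293 genes) and Benjamini-Hochberg adjustment over all of them at 0.05. The same fit with age as a factor gave the comparison of ages and the 4 steps. SEs of slopes follow from the F value. Ratios were tested by exact permutation (scipy 1.17.1). Scripts were tested on simulated data. Alternatives were DESeq2 1.42.0, limma 3.58.1, other scalings, no filter, log2(day + 1), a replicate block, and leaving out P0 or each sample. Gene names, lengths and exon sequences came from GENCODE M21, promoters from RefSeq (GRCm38.p6). *Mir124-2hg* and the sequence of miR-124 were not used here.

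Members and gene lists were chosen with earlier results of these data known. Named are the 10 regulators, the 4 steepest called genes each way among the other regulators, called paralogs, called targets, and the 3 genes most like *Ptbp1*, *Ptbp2*, *Srrm4* and *Rbfox1* with a mean of at least 10 CPM. *Srrm3*, *Dlg4*, *Src*, *Nrxn3* and single markers were named beyond this rule after their values were seen. Some called targets are counted but not reported by name here.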

Additional observations from a re-analysis of the deposited data

How the results depend on the processing

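The 3 falls and 2 rises among the 10 regulators became 5 falls and 1 rise with total counts as the only scaling, and 1 fall (*Ptbp1*) remained past the threshold without the P0 samples, where 3 rather than 5 targets rose. The replicate block and limma-voom each left 1 rise (*Rbfox1*) and 2 falls (*Ptbp1*, *Ptbp2*). Leaving out 1 sample at a time gave 2 to 4 falls, 1 to 2 rises and 3 to 6 regulators that differed between ages, with 3 reached without replicate 1 of P0 or of P21. The late minus early difference of *Ptbp2* to *Ptbp1* then ranged from 0.73 to 1.64 log2 units, and that of *Nova2* to *Nova1* from -0.51 to 0.25. With P4 alone as the early age, the *Rbfox1* to *Rbfox2* difference was 1.62 and missed the threshold after adjustment. Every late ratio still lay above every P4 ratio, in a test of fewer samples whose smallest unadjusted p is 0.0238 (exact permutation test). Per kilobase of the longest transcript, *Rbfox3* exceeded *Rbfox2* in 3 samples rather than 1 and *Rbfox1* exceeded *Rbfox3* in 7 rather than 12. Apart from the shorter test with P4 alone, the cause of these shifts was not tested.

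Samples with the same replicate number did not deviate together (mean correlation -0.0033 over 30 pairs, none above 0.1), so the numbers were not treated as pairs. With the replicate block the fall of *Srrm4* had an adjusted p of 0.0515, the rise of *Rbfox3* 0.0580 and the difference of *Nova2* between ages 0.0603 (edgeR), all past the threshold without it, and no other call on the 10 regulators changed. The other 40 values of counts and ratios under other settings stayed on their side of the threshold or within 1.5 times. Single genes kept their call in 82 of 100 such values, lost it in 10 and gained it in 8.

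With 3 samples per age and a biological coefficient of variation of 0.705, differences between neighbouring ages of the size seen here did not pass the threshold. Levels near 3 counts, such as *Ptbp1* in 1 P21 sample, carry a large counting error. Gene counts show neither protein nor exon inclusion, and reads on bases shared with antisense genes cannot be assigned.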
